A study of Mus musculus with 30 samples.

Results

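Bub1b_R is a rescue clone of the mouse embryonic stem cell (ESC) line Ainv15, in which an shRNA against Bub1b is always present and doxycycline (Dox) switches on a Bub1b copy that the shRNA does not recognize. Its transcriptome was compared between cells kept in Dox (1 µg/ml) and cells after 5 days without it, on 3 arrays each. These are 6 of the 30 arrays of the study, taken by their labels Bub1b_R_+Dox and Bub1b_R_-Dox. The other 24 arrays hold Control_R, Chek1_R, Ppm1g_R and Ppp2r1b_R, each with and without Dox. Their changes are set beside that of Bub1b_R. They also enter the normalization, the detection filter and the shared estimate of spread behind every SE and p-value. All groups share the Ainv15 background with its reverse tetracycline transactivator and culture with LIF, and the withdrawal of Dox was the same in every clone, so Control_R also carries the effect of Dox itself. Stocks were grown on primary mouse embryonic fibroblasts, and the study states that the rescue clones were kept without feeders for this comparison. The labels do not say which Bub1b_R isolate was hybridised, nor whether the 3 arrays of a condition came from separate cultures. The p-values measure the spread between arrays of the same condition, pooled over all 30 arrays, and that spread may be technical. With 3 arrays per condition the precision of every value is limited.

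Bub1b encodes BubR1, a kinetochore protein of the spindle assembly checkpoint. Together with Mad2 and Bub3 it holds back Cdc20 and the anaphase-promoting complex until all chromosomes are attached to the spindle. ESCs in LIF keep a network of pluripotency factors around Oct4 (Pou5f1), Sox2 and Nanog. When they leave it toward mesoderm and endoderm, they pass through a state like the primitive streak of the gastrulating embryo, which is set up by Wnt, Nodal, BMP and FGF signals and marked by T (Brachyury), Eomes, Mixl1 and Mesp1.

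The shRNA against Bub1b is shown here because its target decides which Bub1b transcripts it can act on. Bub1b_R differs from the control clone by this shRNA, by the Dox-driven Bub1b copy and as a separate isolate. The study credits the control clone to the authors' earlier work. Whether its arrays were run together with those of Bub1b_R is not in the labels. The parts of all these in a difference between both clones cannot be told apart.

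Bub1b rescue construct shRNA: gcacacttagacacatcagca

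It has 21 bases. The Bub1b rescue copy belongs to those the study made by leaving out the shRNA target, as a cDNA without the 3′ UTR, and not to those with silent changes in the coding sequence. Whether the Bub1b probe of the array reads the endogenous transcript, the rescue copy or both is not given in the sources used here.

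Between 13005 and 13451 of 25697 probes were detected on each Bub1b_R array (detection p under 0.05), and the 3 arrays within each condition correlated across probes, with r of 0.9937 to 0.9959. After normalization on the log2 scale, 15151 probes of 11177 genes were tested, of which 653 were detected on no Bub1b_R array. The label of the cells was checked against 9 ESC markers (Pou5f1, Nanog, Sox2, Zfp42, Esrrb, Dppa5, Utf1, Tdgf1 and L1td1), and all 9 were detected on all 6 arrays. Of 14 fibroblast markers on the array, 5 were detected on all 6 arrays, and Col1a2, Postn, Lum and S100a4 on none. The summed deposited signal of the fibroblast markers was 7655 to 8514 with Dox and 10201 to 11741 without, of which Acta2, a smooth muscle actin, made up most. Without Acta2 the sum was 590 to 617 with Dox and 665 to 830 without.

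Bub1b itself was read first. Its normalized log2 signal was 9.82, 9.84 and 9.87 with Dox and 9.72, 9.64 and 9.75 without. The arrays without Dox all lay below those with Dox, by a small margin. The change was −0.14 log2 (SE 0.08) with an adjusted p of 0.217 (limma, Benjamini-Hochberg over all tested probes), so a fall of Bub1b on Dox withdrawal was not detected on this array. The value in Control_R was −0.17, and the Bub1b_R change minus the Control_R change was 0.03 (adjusted p 0.905). The probe therefore gives no check of the +Dox and −Dox labels.

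Dox withdrawal nonetheless changed many other transcripts. To count as changed, a probe had to reach 1.5-fold with an adjusted p below 0.05. By these limits 849 probes of 759 genes changed, 5.6% of those tested, with 445 higher (2.94%) and 404 lower (2.67%) without Dox. The split depended on the processing, with 584 higher and 349 lower when the arrays were scaled to one median in place of quantiles, and 459 higher and 587 lower without background correction. The arrays with and without Dox did not overlap for 842 of the 849 probes, against 41.4% of all tested probes. As the 849 were called on these same arrays, this follows largely from the selection and adds no separate support. The large changes were mostly rises. Of the 153 probes that changed at least 2-fold, 123 rose and 30 fell. Counted by the brightest probe of each gene, which stands for the gene from here on, 367 genes (3.28%) rose and 331 (2.96%) fell, and the median change of all genes was −0.01 log2.

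**Figure D1:**
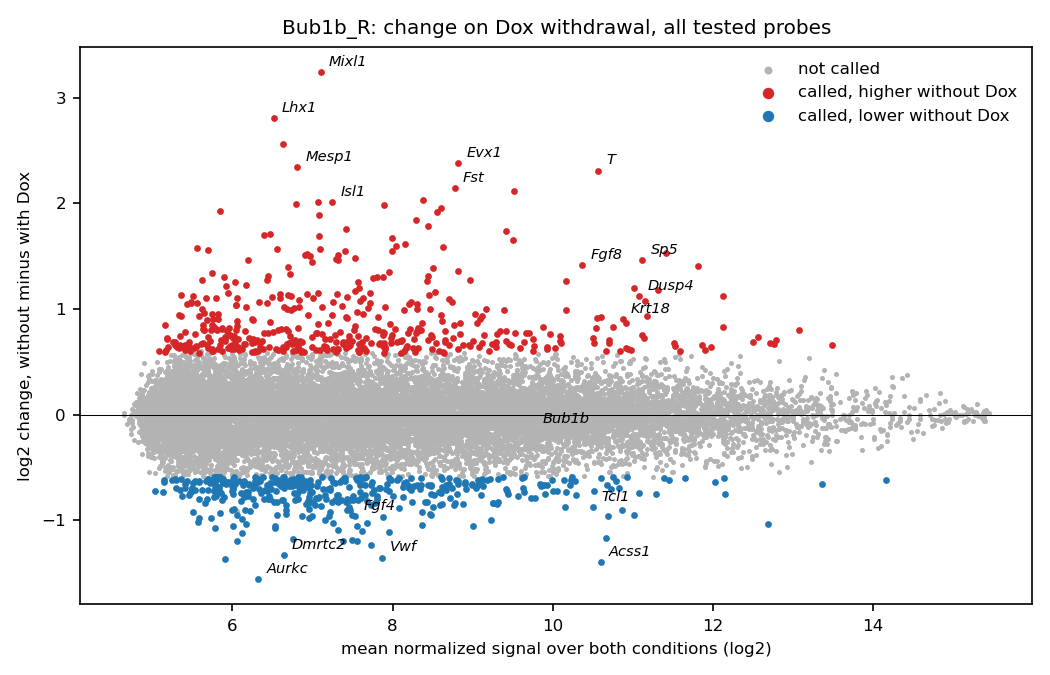
Change on Dox withdrawal in Bub1b_R (y axis, log2 of without over with Dox) against the mean normalized signal of both conditions (x axis, log2) for the 15151 tested probes. Red points are the 445 probes that rose and blue points the 404 that fell. The rises reach 3.24 (Mixl1), while the largest fall is −1.55 (Aurkc).

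The 10 genes that rose most were Mixl1, Lhx1, Evx1, Mesp1, T, Fst, LOC100044289, Defcr-rs7, Cxx1c and Isl1, and 6 of them (all but Fst, LOC100044289, Defcr-rs7 and Cxx1c) are transcription factors of the primitive streak and early mesoderm. Mixl1, a homeobox factor of the streak, had a log2 signal of 5.41, 5.49 and 5.56 with Dox, where it was detected on 1 of 3 arrays, and 8.72, 8.77 and 8.68 without. All 3 arrays without Dox stood clearly apart from those with it, and the rise was 3.24 log2 (SE 0.11, adjusted p 3.01e-16). A second Mixl1 probe rose by 2.56. Lhx1, a LIM homeobox factor of the streak and the later head organizer, was detected on none of the arrays with Dox (4.80, 5.13 and 5.41) and on all 3 without (8.05, 7.65 and 8.06). Its level without Dox was at least 5.45-fold that with Dox (means of 7.92 and 5.11, adjusted p 1.18e-12), setting the arrays without Dox against the lowest signal detected on each array with Dox. Such bounds are used below for the change within Bub1b_R of every gene that went undetected in one condition. Differences between clones are given as fitted, and where a gene went undetected in a condition they are no measured size.

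Evx1, a homeobox factor of the posterior streak, read 7.60, 7.75 and 7.55 with Dox and 9.97, 10.00 and 10.06 without, a rise of 2.38 (SE 0.14, adjusted p 9.86e-12). Mesp1, which marks the first cardiac and paraxial mesoderm, read 5.47, 5.58 and 5.85 with Dox and 8.14, 7.92 and 7.87 without, a rise of 2.35 (SE 0.11, adjusted p 1.85e-13). T, the T-box factor that defines the streak, was already well detected with Dox, at 9.37, 9.44 and 9.43, and read 11.69, 11.75 and 11.73 without, a rise of 2.31 (SE 0.11, adjusted p 1.57e-13). The spread within each condition was small beside each of these differences. No array of one condition reached the other, which the list of largest rises required. Isl1, a LIM homeobox factor of cardiac progenitors, rose by 2.01 (SE 0.14, adjusted p 1.62e-10), from 6.17, 6.35 and 6.20 to 8.30, 8.24 and 8.22. Eomes, the T-box factor of the anterior streak, went from undetected on 3 arrays to detected on 3 and was at least 2.53-fold higher (4.86, 4.93 and 4.85 with Dox, 6.81, 6.76 and 6.85 without, adjusted p 5.18e-12).

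**Figure D2:**
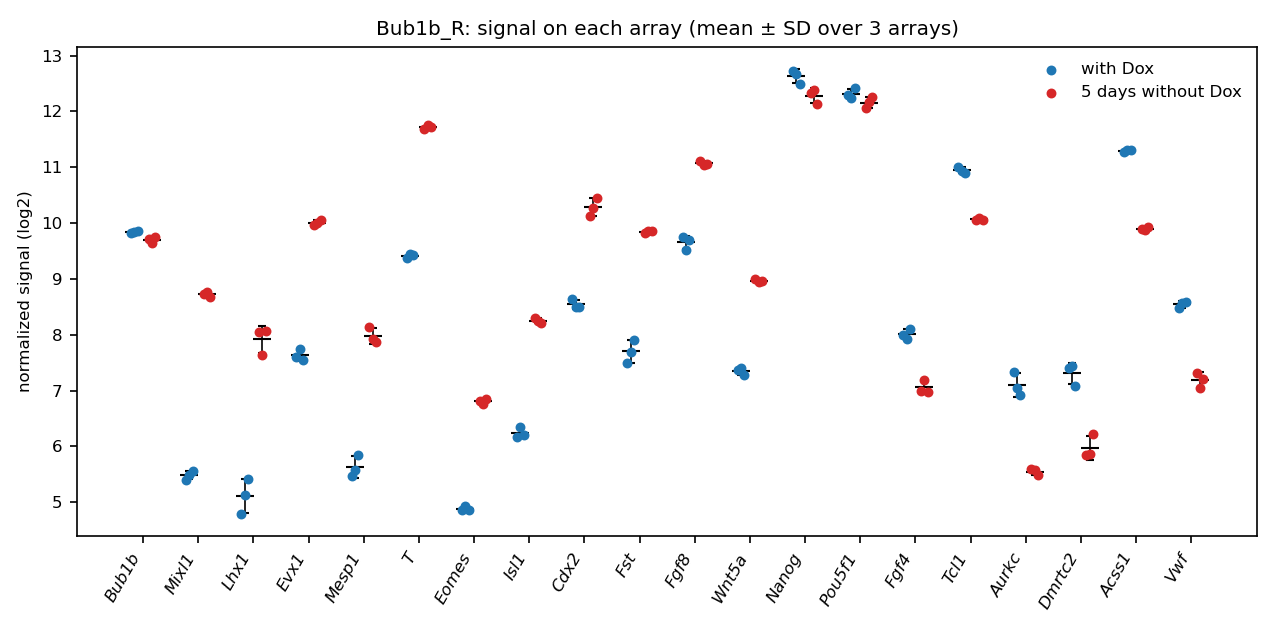
Normalized signal (y axis, log2) of 20 genes on each Bub1b_R array, with Dox in blue and after 5 days without Dox in red. Black bars are the mean and SD over 3 arrays. Mixl1, Lhx1, Evx1, Mesp1, T, Eomes and Isl1 move up, Aurkc, Dmrtc2, Acss1 and Vwf move down, and Bub1b and Pou5f1 hardly move. The signals of different genes come from different probes and are not comparable in height.

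The wider list of primitive streak and early mesoderm genes was read as a group. Of its 29 tested genes 19 rose and none fell, and the median change was 1.30 log2 against −0.01 for all genes. Besides the genes above, Agtrl1 (the apelin receptor, 1.99), Cdx2 (1.73), Sp5 (1.47), Pdgfra (1.44), Fgf8 (1.41), Gsc (1.35), Wnt3 (1.33), Lef1 (1.30), Snai1 (1.14), Wnt3a (0.88), Axin2 (0.85) and Foxc1 (0.82) rose. The other 10 tested members did not pass, among them Twist1 (0.42, adjusted p 0.0351). The median change of the same list was 0.11 in Control_R, 0.31 in Ppp2r1b_R, 0.52 in Ppm1g_R and 1.55 on the arrays labelled Chek1_R. On those arrays Chek1 itself went undetected with Dox and was detected on all 3 without. Its rise, against the label, is a fitted value (0.71) and no measured size. Whether its probe reads the endogenous transcript, the rescue copy or both is not given, so it gives no check of the labels. Of the 19 genes that rose, 18 also rose relative to Control_R, the exception being Foxc1 (adjusted p 0.0508). Among all 445 probes that rose, 246 did so. In bulk RNA, more cells of a type and more RNA of these genes per cell cannot be told apart.

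Since the streak genes moved together, their promoters were searched for the core letters of the sites bound by TCF/LEF factors, the nuclear end of Wnt signaling (CTTTGAT), and by T-box factors such as T and Eomes (AGGTGTGA), on both strands. Promoter windows of 300 bases around the RefSeq gene start (GRCm38.p6) were at hand for 16 of the 19 genes that rose. The TCF/LEF letters occurred in the windows of 2 of them, Sp5 and Mesp1, and in 3.72% of 27025 windows of all genes. The T-box letters occurred in the window of 1, Mesp1, and in 1.27% of all windows. Both windows are shown, with the matches in capitals, because Sp5 and Mesp1 are the streak genes of this clone that hold any match. Each is a match of letters, which does not show binding.

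Sp5 promoter, chr2:70474673-70474972, plus strand: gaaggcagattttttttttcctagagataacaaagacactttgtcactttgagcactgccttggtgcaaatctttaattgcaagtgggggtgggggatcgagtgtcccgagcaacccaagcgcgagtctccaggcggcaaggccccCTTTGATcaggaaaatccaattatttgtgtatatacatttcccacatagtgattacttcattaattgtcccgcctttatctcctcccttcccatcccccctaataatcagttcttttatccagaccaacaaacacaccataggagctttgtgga

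Mesp1 promoter, chr7:79793541-79793840, minus strand: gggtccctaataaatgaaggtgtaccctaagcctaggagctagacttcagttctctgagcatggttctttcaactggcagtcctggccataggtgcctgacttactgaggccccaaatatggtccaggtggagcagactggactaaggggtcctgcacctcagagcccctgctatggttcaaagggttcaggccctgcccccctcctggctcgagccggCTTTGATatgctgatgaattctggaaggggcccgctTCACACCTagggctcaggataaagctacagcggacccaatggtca

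In the Mesp1 window the first capitals are the TCF/LEF letters and the second are the T-box letters read on the opposite strand. Mesp1 rose by 2.35 log2 and Sp5 by 1.47 in the clone.

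The signaling pathways that set up the streak were described next, through their ligands, feedback inhibitors and targets. Of 26 tested Wnt genes 14 rose and none fell, with a median of 0.66. The ligands Wnt5b (1.69), Wnt5a (1.62), Wnt3 (1.33) and Wnt3a (0.88) rose, as did the receptor Fzd10 (0.76). Among feedback inhibitors and direct targets, Axin2 rose from 8.33, 8.39 and 8.33 to 9.14, 9.23 and 9.21 (0.85, SE 0.07, adjusted p 4.12e-09), and the Wnt-responsive factor Sp5 rose from 10.37, 10.33 and 10.45 to 11.80, 11.95 and 11.79 (1.47, SE 0.10, adjusted p 4.81e-11). Notum, which inactivates Wnt ligands, rose by 0.69, and Ccnd2 by 0.87. Wnt5b lost its call without background correction (1.95, adjusted p 0.0918), as did Lef1 (2.27, adjusted p 0.0596).

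The Nodal pathway was mixed. Of 14 tested genes 6 rose and none fell, with a median of 0.14 (0.40 without background correction). Fst, the secreted binder of activin, rose from 7.49, 7.70 and 7.91 to 9.82, 9.86 and 9.86 (2.14, SE 0.12, adjusted p 2.08e-12). The organizer factor Gsc (1.35), the inhibitor Lefty2 (0.82) and the activin subunit Inhba (0.65) also rose. The ligand Nodal (−0.06, adjusted p 0.675) and its inhibitor Lefty1 (−0.04, adjusted p 0.741) did not pass, and their arrays with and without Dox overlapped.

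Of 15 tested BMP genes 5 rose and none fell, with a median of 0.25 (0.40 without background correction). Msx1, a homeobox target of BMP, rose from 6.95, 6.98 and 6.77 to 9.02, 8.83 and 8.79 (1.98, SE 0.21, adjusted p 1.19e-07). Gata3 (1.14), Id1 (0.68), the ligand Bmp4 (0.63) and the antagonist Nog (0.67) rose as well, while Id2 stood at 0.25 (adjusted p 0.118). Of 20 tested genes of FGF signaling through ERK, 7 rose and 1 fell, with a median of 0.31. The streak ligand Fgf8 (1.41), the epiblast ligand Fgf5 (0.95) and the ERK phosphatases Dusp4 (1.12) and Dusp6 (0.61) rose, as did Myc (0.82), Phlda1 (0.79) and Egr1 (0.61). The ligand Fgf4, which undifferentiated ESCs make themselves, fell from 8.00, 7.93 and 8.11 to 6.99, 7.20 and 6.98 (−0.96, SE 0.09, adjusted p 5.4e-08).

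**Figure D3:**
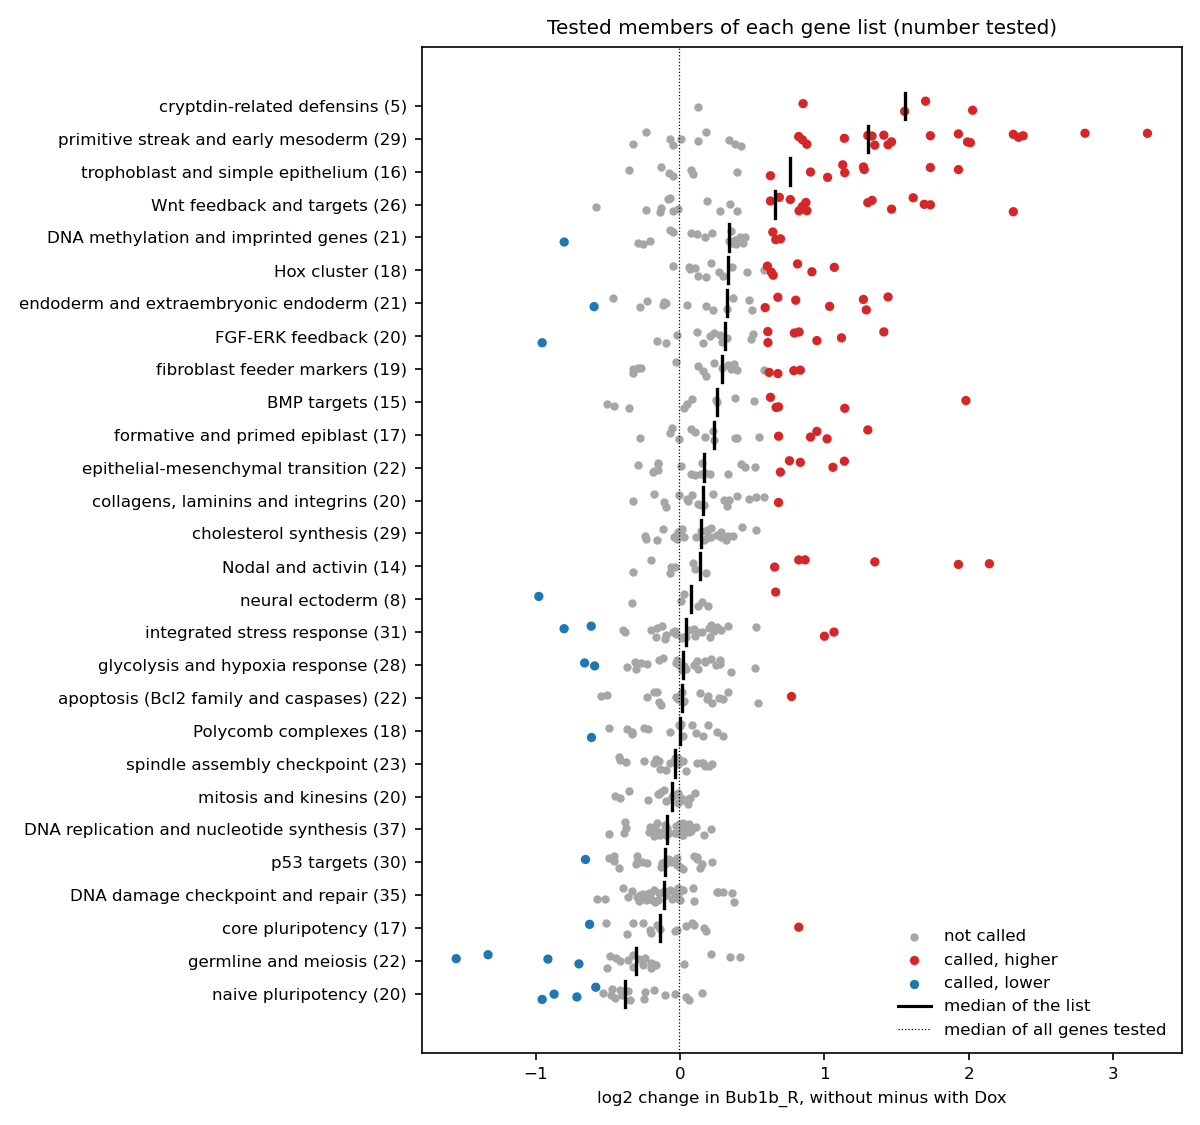
Change on Dox withdrawal in Bub1b_R (x axis, log2) of every tested member of 28 gene lists, ordered by their medians, with the number tested in parentheses. Red and blue points passed the limits upward and downward, black bars are list medians, and the dotted line is the median of all genes, −0.01. The primitive streak list (median 1.30) and the naive pluripotency list (median −0.38) lie at opposite ends, next to the small defensin list and the germline list.

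Lists of other embryonic lineages rose less evenly. Of 16 tested trophoblast and simple epithelium genes 9 rose and none fell, with a median of 0.76, or 0.71 with undetected genes at their bound. They include the streak genes Eomes and Cdx2, the keratins Krt19 (1.27), Krt8 (1.13) and Krt18 (0.90), Cited1 (1.02) and Plac1, which was undetected with Dox and at least 1.73-fold higher without (4.99 against 6.26, adjusted p 3.95e-09). Of 21 endoderm genes 7 rose and 1 fell, with a median of 0.32 (0.51 without background correction). Gata6, a factor of primitive endoderm and cardiac mesoderm, rose from 7.24, 7.01 and 7.09 to 8.45, 8.39 and 8.37 (1.29, SE 0.12, adjusted p 2.33e-08), and the chemokine receptor Cxcr4 rose by 1.04. Sox17, which marks definitive endoderm, went from undetected to detected on 3 arrays and was at least 1.49-fold higher (5.25 against 6.05, adjusted p 0.0008), while Gata4 stood at 0.18 (adjusted p 0.451). The lipoprotein gene Apoe fell (−0.60). Of 8 tested neural genes Nes rose (0.66), though its second probe did not pass (0.42, adjusted p 0.0877), and Neurog3 was at least 1.56-fold lower without Dox (6.08 against 5.10, adjusted p 3.05e-06), where it was undetected.

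Of 18 tested Hox genes, which set position along the body axis, 6 rose and none fell, with a median of 0.33 (0.65 without background correction). Hoxd9 (1.07), Hoxd8 (0.91), Hoxc9 (0.81), Hoxa5 (0.63) and Hoxd10 (0.60) rose by small amounts, and Hoxa9 was at least 1.24-fold higher (5.14 against 5.78, adjusted p 0.00519). Hoxd10 lost its call without each of 5 of the 6 arrays in turn, as it just passed the limits. Of 22 genes of the epithelial-mesenchymal transition, which accompanies movement through the streak, 5 rose and none fell, with a median of 0.16 (0.28 without background correction). The repressors Snai1 (1.14) and Zeb2 (0.69), the ligands Tgfb1 (1.06) and Tgfb2 (0.76) and the filament protein Vim (0.83) rose, while the adhesion protein E-cadherin (Cdh1) stood at −0.19 (adjusted p 0.0945). Of 19 tested fibroblast feeder genes 4 rose (Vim, Twist2 by 0.79, Dcn by 0.68 and Tagln by 0.62) and none fell, with a median of 0.29. Thy1, a surface marker of fibroblasts, stood at −0.32 (adjusted p 0.000849, under 1.5-fold), Col3a1 was detected on 3 arrays with Dox and none without, and Col1a1 stood at 0.58 (adjusted p 0.0475). The part of fibroblasts in the mesenchymal and mesoderm results was not tested. Of 20 collagens, laminins and integrins only Col4a1, a basement membrane collagen, rose (0.68).

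Changes in the pluripotency network were small and mostly negative. Of 20 tested naive pluripotency genes 4 fell and none rose, and 17 of 20 changes were negative, with a median of −0.38. Tcl1, a cofactor of Akt, fell from 11.00, 10.94 and 10.89 to 10.06, 10.09 and 10.06 (−0.87, SE 0.05, adjusted p 1.88e-11), and Pecam1 fell by 0.72 on the log2 scale. Fgf4 is described above. The fall of Jam2 (−0.59) rests on 1 of its 4 probes, the others standing between −0.16 and 0.09, and was lost without any one of 3 arrays (Bub1b_R with Dox replicate 1, without Dox replicates 2 and 3), with values of −0.56 to −0.45. Several factors of the network passed the p limit at less than 1.5-fold: Klf2 (−0.54, adjusted p 1.26e-06), Nr5a2 (−0.48, adjusted p 5.34e-05), Klf4 (−0.48, adjusted p 0.00321), Esrrb (−0.45, adjusted p 5.5e-06), Dppa3 (−0.42, adjusted p 0.000301) and Nanog (−0.35, adjusted p 0.0132). Zfp42 (Rex1) stood at −0.25 (adjusted p 0.145).

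Nanog read 12.73, 12.67 and 12.49 with Dox and 12.33, 12.39 and 12.14 without, so all arrays without Dox were lower by a small margin. Pou5f1 read 12.29, 12.25 and 12.42 against 12.06, 12.17 and 12.25, and the arrays overlapped (−0.16, adjusted p 0.2). Sox2 stood at −0.51 (adjusted p 0.000103, under 1.5-fold). Of 17 tested core pluripotency genes only Utf1 fell (−0.63) and only Lefty2 rose (0.82). Of 17 formative and primed epiblast genes, which mark the next stage, 5 rose and none fell. They are Fgf5, Lef1, Krt18, Car14 (0.68) and Pim2 (1.02). Pim2 was scattered with Dox (5.66, 7.02 and 6.30) and lost its call without any one of 4 arrays (with Dox replicates 1 and 3, without Dox replicates 1 and 2), with values between 0.68 and 1.04. Otx2, a factor of the formative state, stood at −0.07 (adjusted p 0.523).

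The 10 genes that fell most were Aurkc, Acss1, Vwf, Dmrtc2, 1190002H23Rik, Crxos1, Dnaic1, Rab3il1, LOC100046049 and Igsf21. Aurkc, the Aurora kinase of meiosis, fell from 7.34, 7.05 and 6.91 to 5.59, 5.58 and 5.48 (−1.55, SE 0.16, adjusted p 7.23e-08). Acss1, a mitochondrial acetyl-CoA synthetase, fell from 11.27, 11.31 and 11.31 to 9.90, 9.87 and 9.93 (−1.40, SE 0.06, adjusted p 1.09e-14), and the clotting factor gene Vwf fell from 8.48, 8.56 and 8.60 to 7.32, 7.05 and 7.21 (−1.35, SE 0.10, adjusted p 8.6e-10). Lack of overlap between the arrays was required for listing all 10 genes. The other 7 fell by 1.18 to 1.33 on the log2 scale. For Rab3il1 the call was lost without background correction (−1.70, adjusted p 0.0983) and a second probe missed the fold limit (−0.52). Rab3il1 also fell in Control_R (−0.74, adjusted p 0.0006), and the difference between both changes did not pass (−0.45, adjusted p 0.104). Acss1 fell in Control_R too (−0.67, adjusted p 3.67e-08), and its difference of −0.73 passed (adjusted p 1.14e-06). Aurkc and Dmrtc2 belong to the germline and meiosis list, of which 4 of 22 tested genes fell and none rose, with a median of −0.31. The others that fell are the cohesin subunits of meiosis Smc1b (−0.92) and Rec8 (−0.70). The germ cell genes Dazl (−0.50, adjusted p 0.00036, under 1.5-fold) and Ddx4 (0.22, adjusted p 0.37) did not pass.

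Genes of the process that Bub1b serves did not pass the limits within Bub1b_R, and few differed from Control_R by both limits. Of 23 tested genes of the spindle assembly checkpoint none passed in limma, with a median of −0.03. An unadjusted p under 0.05 was reached by 8 and an adjusted one by 3. Among all 15151 tested probes 5259 had such an unadjusted p and 3700 such an adjusted p, so these counts do not set the list apart. Bub3 stood at 0.22 (adjusted p 0.0767), Mad2l1 at −0.03 (adjusted p 0.689) and the checkpoint kinase Ttk at −0.43 (adjusted p 0.0747). The 3 genes with an adjusted p under 0.05 were the kinetochore protein Zwilch (−0.42, adjusted p 0.00444), separase (Espl1, −0.38, adjusted p 0.00297) and Kntc1 (−0.25). Of 20 genes of mitosis none passed (median −0.06, 4 with an unadjusted p under 0.05), with Cdk1, listed as Cdc2a, at −0.05 and Ccna2 at −0.10. Of 37 genes of DNA replication none passed (median −0.09, 7 with an unadjusted p under 0.05), with Mcm2 at −0.11 and Mcm3 at −0.16. Relative to Control_R, 2 checkpoint genes were lower by both limits, Ttk (−0.85, adjusted p 0.0217) and Zwilch (−0.66, adjusted p 0.00431). In Control_R they stood at 0.42 and 0.24. In the mitosis list Ube2c (−1.02), Cep55 (−0.66) and Kif18a (−0.60) were lower relative to Control_R, and in the replication list none differed by both limits. Among all 15151 tested probes 371 were lower relative to Control_R by both limits, and no test of these lists was run. Within Bub1b_R the fitted changes lay between −0.43 and 0.22 in the checkpoint list, −0.45 and 0.11 in the mitosis list and −0.49 and 0.21 in the replication list.

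Genes of the response to DNA damage were read because loss of the checkpoint can lead to missegregated and damaged chromosomes. Of 35 tested genes of damage checkpoint and repair none passed, with a median of −0.11. Among them 12 had an unadjusted p under 0.05, against 5259 of all 15151 tested probes. Chek1 stood at −0.24 (adjusted p 0.309) and Chek2 at −0.20 (adjusted p 0.172). Of 30 tested p53 targets none rose and 1 fell, Pltp (−0.66, adjusted p 0.0011), and 23 of the 30 changes were negative, with a median of −0.10. The arrest gene Cdkn1a read 11.19, 11.23 and 11.24 with Dox and 11.10, 11.12 and 11.23 without, and these arrays overlapped (−0.07, adjusted p 0.449). Mdm2 stood at −0.10 (adjusted p 0.362), Bax at 0.14 (adjusted p 0.347), the repair gene Ddb2 at −0.43 (adjusted p 1.68e-05, under 1.5-fold) and Trp53 itself at −0.07 (adjusted p 0.673). These are levels of mRNA and say nothing of the p53 protein. Of 22 genes of the Bcl2 family and caspases only Casp8, an initiator caspase, rose (0.77), while Bcl2 (0.27) and Bcl2l1 (0.19) did not pass.

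Among stress and metabolic genes, 2 of 31 tested genes of the integrated stress response rose and 2 fell. Atf3 (1.07) and Vldlr (1.00) rose, Gdf15 (−0.80) and Nupr1 (−0.62) fell, and Atf4 stood at −0.13 (adjusted p 0.359). For Ddit3 (Chop) the brightest probe missed the fold limit (−0.38) and the second fell (−0.62, adjusted p 0.00203). Of 28 genes of glycolysis and the hypoxia response Hk1 (−0.66) and Pgk1 (−0.59) fell, and the glucose transporters Slc2a1 (0.17) and Slc2a3 (0.02) did not pass. Of 29 genes of cholesterol synthesis none passed (median 0.14), with Sqle at 0.26. An unadjusted p under 0.05 was reached by 11 of them, and by 5259 of all 15151 tested probes.

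Among chromatin and imprinted genes, 3 of 21 tested genes rose and 1 fell, with a median of 0.34, or 0.22 with undetected genes at their bound. The imprinted genes Peg3 (0.70), Cdkn1c (0.66) and Peg10 (0.64) rose. Slc22a18 fell (−0.80), but its second probe stood at 0.07. The methyltransferases Dnmt3b (0.38, adjusted p 3.91e-05) and Dnmt1 (−0.29, adjusted p 0.0121) stayed under 1.5-fold. Of 18 Polycomb genes only Phf19 fell (−0.62), and Ezh2 stood at 0.00 and Ezh1 at −0.37. Phf19 (−0.80) and Ezh1 (−0.63) were also lower relative to Control_R.

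Of 5 tested cryptdin-related genes, which encode intestinal defensins and share much of their sequence, 4 rose. Defcr-rs7 rose from 7.18, 7.41 and 7.51 to 9.40, 9.44 and 9.34 (2.03, SE 0.13, adjusted p 5.44e-11) and AY761185 by 1.70. Defcr-rs10 was at least 2.01-fold higher (4.92 against 6.48, adjusted p 5.64e-09), and Defcr26 at least 1.08-fold higher with detection on 2 of 3 arrays without Dox (4.73 against 5.58, adjusted p 0.000331). Probes of such close relatives can bind each other's transcripts, so the 4 are not independent.

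The Bub1b_R change was then set against that of Control_R, which carries the withdrawal of Dox without the shRNA against Bub1b. Control_R itself changed at 167 probes (1.1%). Of the 849 probes changed in Bub1b_R 47 changed the same way in Control_R and none the opposite way. In the test of the difference between both changes, 780 probes (5.15%) passed, 409 higher and 371 lower in Bub1b_R, a split that turned to 336 and 404 without background correction. Of the 849, 441 passed this test in the same direction, 246 of the 445 that rose and 195 of the 404 that fell. The largest positive differences were Mixl1 (3.26, adjusted p 6.82e-13), Lhx1 (2.70), Evx1 (2.66), Mesp1 (2.38) and Msx1 (2.17). In Control_R these genes stood at −0.02, 0.11, −0.28, −0.03 and −0.19. Mixl1 and Lhx1 were detected on none of the 6 Control_R arrays and Mesp1 on 1. T differed by 1.56 (adjusted p 2.58e-07), since it also stood 0.75 higher without Dox in Control_R. LOC100044289 and Fgf8 stood higher without Dox in Control_R as well (1.46 and 0.76), and differed by 0.66 and 0.65. Genes of other lists whose rise did not differ from Control_R by both limits include Lefty2 (0.48), Krt18 (0.53), Inhba (−0.04), Nes (0.11), Egr1 (−0.01) and Cited1 (0.19). Hoxc9 (0.18), Nog (0.13), Pim2 (0.95, adjusted p 0.215), Cxcr4 (0.76, adjusted p 0.117), Myc (0.71, adjusted p 0.0512), Peg3 (0.38), Peg10 (0.35) and Casp8 (0.55) did not either. By list, the rise also differed for 12 of 14 Wnt, 6 of 9 trophoblast, 3 of 5 BMP, 3 of 6 Nodal, 3 of 6 Hox and 2 of 5 formative genes.

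The largest negative differences were LOC639910 (−1.65), Aurkc (−1.32), Defb42 (−1.16), OTTMUSG00000010537 (−1.12) and Gstp2 (−1.10). LOC639910 did not fall in Bub1b_R (−0.33, adjusted p 0.083) but stood 1.33 higher without Dox in Control_R, so its difference comes from the control side. Gstp2, a glutathione S-transferase, fell from 11.20, 11.24 and 11.33 to 10.07, 10.12 and 10.07 (−1.17) with a Control_R change of −0.07. OTTMUSG00000010537 went undetected without Dox and was at least 1.37-fold lower there (5.89 against 5.18, adjusted p 0.000194). Of the pluripotency genes, Fgf4 (−1.02), Pecam1 (−0.60), Jam2 (−0.63), Utf1 (−0.65), Dppa3 (−0.62) and Tdgf1 (−0.68) were lower relative to Control_R by both limits. Gbx2 was higher (0.75). Tcl1 (−0.49), Nanog (−0.52) and Klf2 (−0.38) missed the fold limit. Esrrb (−0.15, adjusted p 0.318) and Sox2 (−0.35, adjusted p 0.0651) missed both. Of other genes that fell, Nupr1 (−0.18), Gdf15 (−0.56), Pltp (−0.51), Hk1 (−0.50), Pgk1 (−0.47) and Apoe (−0.42) did not differ by both limits. In Control_R, Esrrb stood at −0.31 and Nupr1 at −0.44. All 4 germline and meiosis genes that fell were also lower relative to Control_R.

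The last comparison asked where the Bub1b_R change differed from the mean change of the other 3 rescue clones. Their 18 arrays have higher background, with a lowest detected signal of 27.8 to 58.1 against 12.9 to 20.9 on the 12 arrays of Bub1b_R and Control_R, so a dim gene can go undetected there at a level detected in Bub1b_R. In this test 90 probes (0.594%) passed, 45 in each direction, and 56 of the 849 probes were among them in the same direction. The arrays labelled Chek1_R weigh on this mean, and leaving them out gave 150 probes, 90 higher and 60 lower.

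The genes that rose more in Bub1b_R than in the other clones were led by Lhx1 (difference 1.45, adjusted p 2.26e-05), Mixl1 (1.45, adjusted p 1.51e-07), Lmo2 (1.22, adjusted p 1.65e-06), Kcnc1 (1.21, adjusted p 5.12e-07) and Dusp2 (1.19, adjusted p 0.000169). The first 2 turned without background correction, to −0.18 for Lhx1 and −0.57 for Mixl1. Their direction against the other clones thus depends on how background and dim signals are handled. Both were undetected with Dox on every array of those clones. Without Dox, Mixl1 was detected on 3 of 3 arrays labelled Chek1_R, 3 of 3 of Ppm1g_R and none of Ppp2r1b_R, so its size there is not ranked. Of the other genes named here, Isl1 (difference 1.12), Mesp1 (1.07), Gata6 (0.99), Lef1 (0.79), Egr1 (0.77), Eomes (0.75), Car14 (0.69), Gsc (0.69) and Snai1 (0.63) were also higher by both limits. Isl1 and Mesp1 were undetected with Dox on every array of the other clones, Lef1 on those of 2 clones and Eomes on 8 of 9 arrays, while Gata6, Egr1, Car14, Gsc and Snai1 were detected on all 18.

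Lmo2, a LIM-only cofactor of blood and endothelial progenitors, read 5.85, 6.02 and 5.93 with Dox and 7.14, 7.05 and 6.97 without in Bub1b_R (1.12, SE 0.11, adjusted p 2.57e-08). It stood at −0.67 in Ppm1g_R, −0.21 in Ppp2r1b_R and 0.57 in Chek1_R. It went undetected on some arrays of Chek1_R and Ppp2r1b_R. Dusp2, a nuclear phosphatase of ERK, rose from 6.19, 6.00 and 6.28 to 7.60, 7.72 and 7.67 (1.51, SE 0.14, adjusted p 2.43e-08), with 0.41, 0.28 and 0.27 in the same 3 clones. It was detected on 3 of 6 arrays of Ppm1g_R and none of Ppp2r1b_R. The potassium channel gene Kcnc1 was undetected with Dox and at least 1.93-fold higher without (5.08 against 6.42, adjusted p 3.97e-10), and was detected on none of the 18 arrays of the other clones. The differences of Kcnc1 and Dusp2 lost their calls without background correction (adjusted p 0.648 and 0.179).

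The genes that changed less or fell more in Bub1b_R were Hoxc6 (difference −1.21, adjusted p 0.00187), Ly6a (−0.91, adjusted p 3.24e-07), Rbm3 (−0.91, adjusted p 2.82e-05), Usp18 (−0.89, adjusted p 0.00107) and Defcr-rs7 (−0.87, adjusted p 0.00211). Rbm3, an RNA-binding protein induced by cold, fell from 7.22, 7.15 and 7.00 to 6.22, 6.21 and 6.22 in Bub1b_R (−0.90) and stood at −0.30, 0.62 and −0.31 in Chek1_R, Ppm1g_R and Ppp2r1b_R, though a second, dimmer probe stood at −0.14 in Bub1b_R. Its difference was −1.06 without the arrays labelled Chek1_R. The other 4 calls were lost without those arrays. Ly6a then missed only the fold limit (−0.54, adjusted p 0.000481), Hoxc6 (−0.47, adjusted p 0.317) missed both, and Usp18 (0.50) and Defcr-rs7 (0.32) changed sign without passing. Usp18, Defcr-rs7 and Hoxc6 were undetected with Dox on all 3 arrays labelled Chek1_R and detected on all 3 without.

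**Figure D4:**
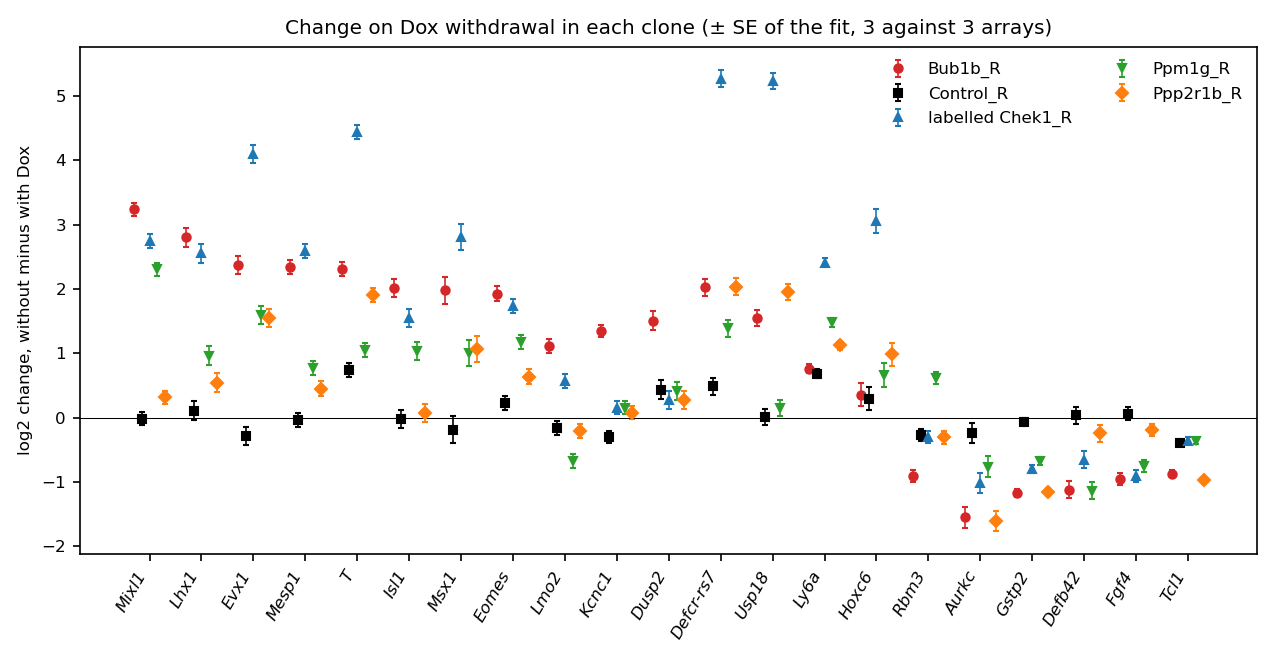
Change on Dox withdrawal (y axis, log2 of without over with Dox) of 21 genes in each clone, as the fitted mean of 3 against 3 arrays with its SE. Red circles are Bub1b_R and black squares Control_R. Bub1b_R lies above the 4 other clones for Mixl1, Lhx1, Isl1, Eomes, Lmo2, Kcnc1 and Dusp2. It lies below them for Rbm3 and, by small margins, for Gstp2 and Fgf4. For Mixl1 and Lhx1 the difference from the mean of the other 3 rescue clones turned without background correction. Heights are fitted values and no measured size where a gene went undetected in a condition. Mixl1, Lhx1, Isl1, Eomes, Usp18, Defcr-rs7 and Hoxc6, among others, did so on the arrays labelled Chek1_R with Dox.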

How the data were processed

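Total RNA of the 30 samples was hybridised to Illumina mouse whole-genome BeadChips. The authors deposited a signal intensity per probe, already background-subtracted but not yet made comparable between arrays, and each probe's detection p-value. Their processing notes name lumi, and the normalization they then used is not given in the sources used here. On Bub1b_R −Dox replicate 2, 14 detection cells held spreadsheet dates, of which 6 were converted back and 8 took the value of the probe with the nearest signal.

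The deposited intensities were normalized with neqc of limma 3.58.1 (R 4.3.3, offset 16, quantiles over 30 arrays, log2). Probes detected (p under 0.05) on 3 or more of the 30 arrays, 15151 in all, entered 1 limma fit of the 10 condition means (20 residual degrees of freedom). The Benjamini-Hochberg adjustment ran over all tested probes, and a probe was called at an adjusted p under 0.05 and 1.5-fold. The offset shrinks changes of dim probes. Bounds set the brighter condition against the higher of the probe's own and the lowest detected signal. The clone, the comparisons and the 28 gene lists were chosen with earlier results of these data known. Genes were named by rule: Bub1b, the 10 largest rises and falls with no overlap of arrays and detection on the 3 higher arrays, up to 4 called members a direction and the first 2 tested members of each list, and the 5 highest and lowest of each difference. Further genes (such as Wnt3, Krt8, Klf2, Klf4, Ddb2, Samd9l and Gbp3) were named after their values were seen. Values of some list members are not reported here. Promoter sequences came from RefSeq, 1 window per gene symbol. The scripts were tested on simulated data. Alternatives covered background correction, scaling, offset, detection filter, fold limit, arrays fitted, replicate block, the methods' t-test and each array left out. For the setting without background correction, the deposited, already background-subtracted signals were floored at 1 and took no offset. No column of per-sample values was left unused.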

Additional observations from a re-analysis of the deposited data

Results flagged for a closer look

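The change on Dox withdrawal differed between Bub1b_R and Control_R at 780 probes, and between Bub1b_R and the mean of Chek1_R, Ppm1g_R and Ppp2r1b_R at 90, each in a test of the difference itself. Against Control_R the named differences were 3.26 log2 for Mixl1, 2.70 for Lhx1, 2.66 for Evx1, 2.38 for Mesp1 and 2.17 for Msx1, and −1.65 for LOC639910, −1.32 for Aurkc, −1.16 for Defb42, −1.12 for OTTMUSG00000010537 and −1.10 for Gstp2. Against the other 3 clones they were 1.45 for Lhx1, 1.45 for Mixl1, 1.22 for Lmo2, 1.21 for Kcnc1 and 1.19 for Dusp2, and −1.21 for Hoxc6, −0.91 for Ly6a, −0.91 for Rbm3, −0.89 for Usp18 and −0.87 for Defcr-rs7. Mixl1, Lhx1, Mesp1, Kcnc1, Dusp2, OTTMUSG00000010537, Hoxc6, Usp18 and Defcr-rs7 each went undetected on all arrays of at least 1 condition compared, so their values are fitted and no measured size. With 3 arrays per condition no array was tested as standing apart from its group.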

How the results depend on the processing

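The number of changed probes moved most with the fold limit and the offset. For Bub1b_R it was 849, and 460 at an offset of 50, 153 at 2-fold and 3700 with no fold limit, while the methods' t-test with no fold limit gave 4959 unadjusted and 2467 after Benjamini-Hochberg adjustment. The difference from Control_R (780) became 434, 132 and 1847 under the first 3 of these settings, and that from the other 3 clones (90) became 41, 10 and 263. The last became 150 without the arrays labelled Chek1_R, an alternative chosen after seeing the data. Leaving out single arrays gave 834 to 920 for Bub1b_R, 679 to 817 against Control_R and 63 to 101 against the other 3 clones. Without background correction the split of Bub1b_R was 459 higher and 587 lower, that against Control_R 336 and 404, and that against the other clones 24 and 47. List medians that moved by over 1.5 times without background correction were Nodal (0.1381 to 0.3966), BMP (0.2539 to 0.3977), Hox (0.3287 to 0.6481), endoderm (0.3235 to 0.5143) and epithelial-mesenchymal transition (0.1621 to 0.2816). Neural ectoderm (0.077 to 0.1513) and collagens, laminins and integrins (0.1548 to 0.2337) did so too. At an offset of 50 the primitive streak median went from 1.3007 to 0.9332 and the Wnt median from 0.6564 to 0.5452. The defensin median went from 1.5559 to 0.9398 there. Whether replicate numbers pair the arrays is not settled. Deviations of same-numbered arrays correlated at 0.09, 0.02 and 0.07, which is low but each the highest for both of its arrays. So few and small values cannot decide it. With the replicate block the 3 counts were 841, 738 and 78.

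Near-zero values changed sign under median scaling: Otx2 (0.004), Nodal (0.0076), Lefty1 (0.0469), Trp53 (0.0318), Cdkn1a (0.0304), Cdc2a (0.0143), Ezh2 (0.0962) and Mad2l1 (0.0261), and the medians of the checkpoint (0.0418), mitosis (0.0155) and Polycomb (0.0149) lists, the last also without background correction (0.0034). Leaving out 1 array at a time gave −0.0181 to 0.0168 for Ezh2, −0.0663 to 0.0024 for Lefty1 and −0.2609 to 0.1255 for Ccna2, none of them called. Against the other 3 clones, Mixl1 (−0.57) and Lhx1 (−0.18) turned without background correction, and Defcr-rs7 (0.32) and Usp18 (0.50) without the arrays labelled Chek1_R. The cause was not tested. No alternative turned the direction of a called Bub1b_R change of a named gene, but calls near the limits were lost: at an offset of 50, 22 of them, among them Myc, Nog, Sox17, Zeb2 and Notum, without background correction Fgf5, Cxcr4, Myc, AY761185, Hoxa9, Dcn and Tagln, and under median scaling Utf1, Apoe, Nupr1, Pgk1 and Sox7. Single arrays ended the calls of Apoe, Nupr1, Pgk1, Pltp, Peg10, Dusp6, Hk1, Inhba, Egr1, Dcn, Tagln and Bmp4 in 1 or 2 cases each, and further calls of Nog, Zeb2, Sox7, Hoxa5 and Hoxa9.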

Other observations

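Genes outside the fixed lists that respond to interferon in many cells were also among those that rose. Samd9l read 6.26, 6.07 and 6.08 with Dox and 8.04, 7.99 and 8.04 without (1.88 log2, SE 0.09, adjusted p 3.59e-13), and differed from Control_R by 1.71. Usp18 rose by 1.55 (adjusted p 2.17e-09), from 6.27, 6.80 and 6.80 to 8.15, 8.12 and 8.25. Gbp3 rose by 1.39 (adjusted p 1.29e-09), but it also stood 0.93 higher without Dox in Control_R, and the difference of 0.46 did not pass (adjusted p 0.0549). These 3 genes were picked after their values were seen, and no test of interferon genes as a group was run.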
